A study of Arabidopsis thaliana with 28 samples.

Results

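Rubisco and the Calvin cycle enzymes fix carbon in the chloroplast, and all but the large subunit of Rubisco are encoded in the nucleus. The occupancy of H3K9ac, the acetylation of lysine 9 on histone H3, was examined at 10 of these nuclear genes in Arabidopsis thaliana. The rule that set the 10 loci uses their names and no measured value, out of 27444 nuclear protein-coding genes of the TAIR10 annotation. They are the 4 Rubisco small subunit genes RBCS1A (AT1G67090), RBCS1B (AT5G38430), RBCS2B (AT5G38420) and RBCS3B (AT5G38410), the Rubisco activase gene RCA (AT2G39730), and the genes of 5 Calvin cycle enzyme subunits, PRK (AT1G32060), GAPA1 (AT3G26650), GAPB (AT1G42970), SBPASE (AT3G55800) and CFBP1 (AT3G54050, named HCEF1 in the RefSeq annotation). A gene was scored as marked in a library when at least 1 H3K9ac domain, a stretch of the genome that the authors called as enriched over an IgG control, overlapped its span by at least 1 bp.

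All 28 libraries came from whole 10-day-old seedlings of the wild-type accession Col-0 that received no treatment, and all were made with the same antibody against H3K9ac. They form 14 groups with 2 replicates each. PHILO ChIP-seq, a form of chromatin immunoprecipitation (ChIP) built for plants, small inputs and large sample numbers, gave 12 of the groups: 5 that differ in the labelled sequencing depth (0.5M, 1M, 2M, 5M and 10M reads), 3 that differ in the PCR cycles of library preparation (10, 12 and 14), 1 from 1 mg of tissue, and 3 from 500K, 100K and 20K nuclei. The other groups are eChIP, a ChIP procedure with a shortened chromatin extraction, and CUT&Tag, in which an antibody guides the Tn5 transposase to cut and tag marked chromatin in place. The study describes biological replicates, but the labels do not say whether the libraries of a group came from separate cultures, so p-values measure the spread between these libraries, which may in part be technical. A whole seedling mixes cell types, and fewer cells that carry the mark cannot be told apart from less mark per cell.

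H3K9ac is deposited by histone acetyltransferases over the promoter-proximal part of active genes and is removed by deacetylases. Light induces the genes for the Rubisco small subunit, Rubisco activase and the Calvin cycle enzymes in green tissue through transcription factors that bind short promoter elements. Among these are the G-box, which is bound by bZIP and bHLH factors such as HY5 and the PIFs, and the I-box.

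Promoters were searched for these elements in the 500 bp before each coding start, a window chosen after the values were seen. The G-box, CACGTG, reads the same on both strands and was found in 6 of the 10 genes, while 9.3% of 27443 windows of the same length held it. The I-box core, GATAAG on either strand, was found in 9 of the 10, while 23.5% of the windows held it. Both occurred in 5 of the 10 genes and in 2.28% of all windows. A match is a description of the sequence and no evidence that a factor binds there. The 6 G-box sites are shown with their flanks because the border of the H3K9ac domain ran on one side of them in some libraries and on the other side in others (5′ to 3′ on the strand of the gene, RefSeq TAIR10.1 sequence, motif letters in capitals, with the I-box core read on the opposite strand as CTTATC).
RBCS1A: ggaattatcttcCACGTGgcattattccag
RCA: ataaacatattcCACGTGgaccaatcaaaa
CFBP1: taagagcaaagcCACGTGtcataacacaag
SBPASE: ttcagttactgcCACGTGtcactctgaccg
RBCS3B: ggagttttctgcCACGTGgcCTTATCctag
RBCS2B: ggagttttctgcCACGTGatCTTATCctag
These sites lie on chr1:25049491-25049520 (minus strand), chr2:16573579-16573608 (minus), chr3:20016803-20016832 (plus), chr3:20709498-20709527 (plus), chr5:15378506-15378535 (minus) and chr5:15382177-15382206 (minus), in the same order. The G-box began 259 bp before the coding start in RBCS1A, 251 bp in RCA, 136 bp in CFBP1, 130 bp in SBPASE, 217 bp in RBCS3B and 216 bp in RBCS2B. In RBCS1A, RCA, SBPASE and RBCS3B it lay inside the longest annotated transcript, so that the 5′ leader of the outermost gene model includes it, and in CFBP1 and RBCS2B it lay upstream of every annotated transcript.

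The promoters of RBCS2B and RBCS3B, neighbours on chromosome 5, had nearly the same letters around the G-box. Their coding sequences were 94.3% identical, those of RBCS1B and RBCS2B 97.3%, and those of RBCS1B and RBCS3B 94.1%, while RBCS1A on chromosome 1 was 87.7% to 90.1% identical to the other 3. How the authors treated reads that align to more than 1 place was not given in the sources used here, so the division of reads among the 3 chromosome 5 copies is uncertain. The 150 bases before the annotated start of RBCS2B (chr5:15382072-15382221, minus strand) show the G-box and the I-box cores together, since this gene was the one most often without a domain.
RBCS2B: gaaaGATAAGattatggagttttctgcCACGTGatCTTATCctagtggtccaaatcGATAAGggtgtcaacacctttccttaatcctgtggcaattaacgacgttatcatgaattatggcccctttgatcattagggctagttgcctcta

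H3K9ac domains covered these genes in nearly every library. RBCS1A, RCA, PRK and SBPASE had a domain in all 28 libraries, which is 4 of the 10 genes, while 26.9% of all genes had one in all 28. RBCS3B, GAPA1, GAPB and CFBP1 had a domain in 27 libraries, RBCS1B in 26 and RBCS2B in 24. The share of all genes with a domain ranged from 35.7% to 64.4% per library. The absences fell in few libraries. RBCS2B had no domain in replicate 2 of 0.5M, in either eChIP library or in replicate 1 of 20K nuclei. Replicate 1 of 20K nuclei also had none at RBCS1B, RBCS3B, GAPA1 and CFBP1, and replicate 2 had none at RBCS1B and GAPB. Without replicate 1 of 20K nuclei, 7 of the 10 genes had a domain in every remaining library, against 27.9% of all genes. Under stricter limits, 2 of the 10 were present in all 28 libraries among domains with a log2 fold change of at least 1 (17.8% of all genes), and 1 among domains with an FDR of at most 1e-10 (12.3% of all genes).

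The libraries held 7813 to 15238 domains and 207252 to 7244177 ChIP reads inside them. Marker genes were scored in the same way. Of 4 markers of green tissue, 3 had a domain in all 28 libraries and the other, LHCB1.2, in 20. Of 6 root markers, SCR had a domain in all 28, CASP1 in 3 and the other 4 in none. Of 4 seed storage and oil body genes, 3 had no domain in any library and CRA1 had one in 2, and the floral identity genes AG, AP1 and AP3 had none in any library.

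**Figure D1:**
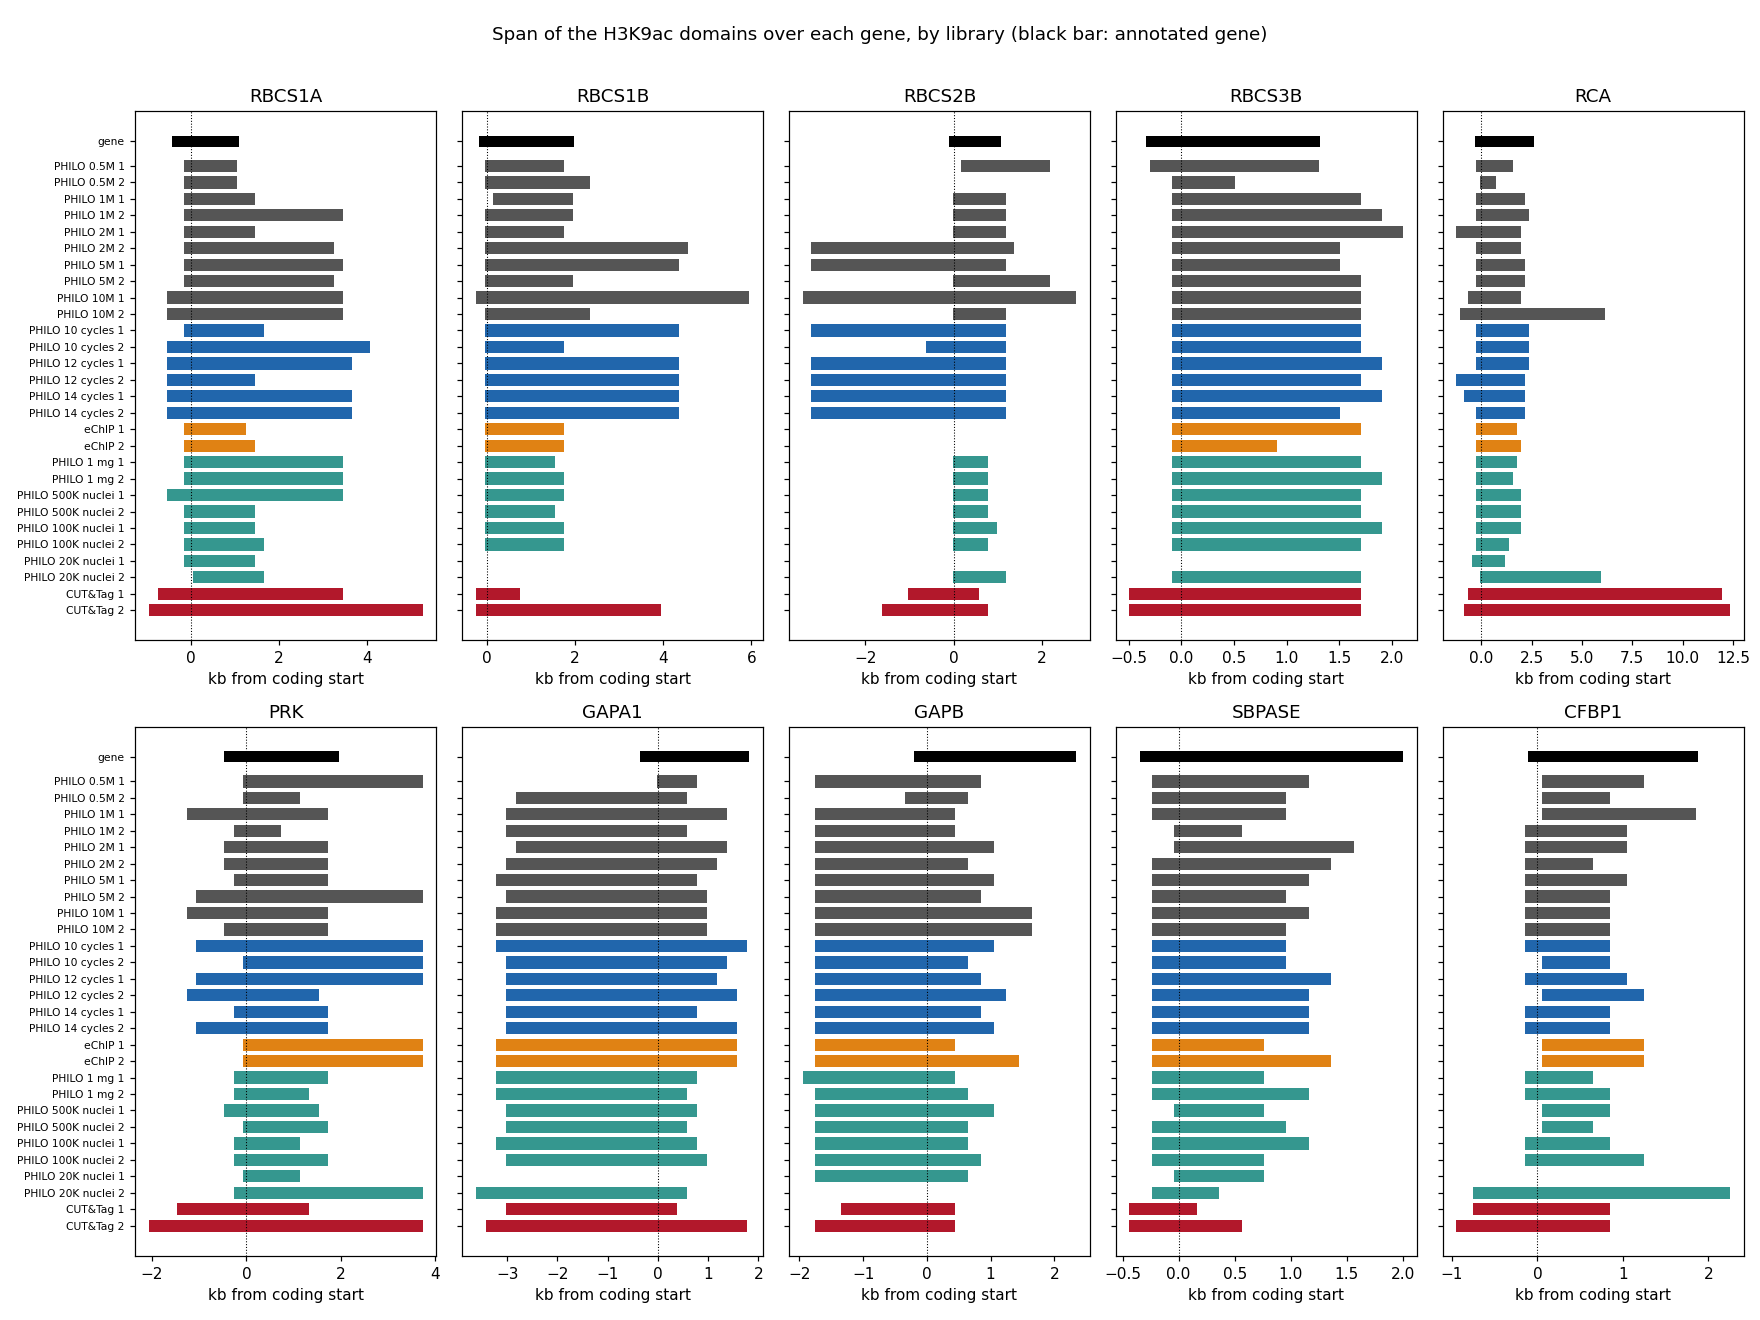
Span of the H3K9ac domains over each of the 10 genes in each of the 28 libraries, in kb from the coding start with transcription running to the right (black bar: annotated gene; grey, depth series; blue, PCR cycle series; orange, eChIP; green, 1 mg and nuclei; red, CUT&Tag; no bar: no domain; where several domains overlap a gene, the bar joins their outermost borders). Most ChIP domains of RBCS3B began 94 bp before the coding start, and both CUT&Tag domains began 494 bp before it.

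Enrichment is given as the log2 of the ChIP over the IgG read count in the domains of a gene, each relative to its library size, so that 1 means 2-fold over IgG. Over the libraries with a domain, the median was highest at CFBP1 (2.35), SBPASE (2.28) and RBCS1A (2.21), lower at GAPA1 (2.02), GAPB (1.94), PRK (1.88), RBCS2B (1.77) and RCA (1.70), and lowest at RBCS3B (1.65) and RBCS1B (1.62). Each gene spread more than this order: RBCS1A ranged from 1.12 to 3.76, CFBP1 from 0.62 to 3.54, and RBCS3B from 0.70 to 2.52, so neighbours in the order are not separated. Ranked among all genes with a domain in the same library, RBCS1A stood at a median percentile of 64.0, SBPASE at 66.8 and CFBP1 at 67.8. The other 7 genes stood below the middle, with GAPA1 at 47.5, GAPB at 40.6, PRK at 34.8, RBCS2B at 33.7, RBCS3B at 23.7, RBCS1B at 19.4 and RCA at 18.1. RBCS3B and RCA were each below the median gene in 26 libraries, of 27 and 28 with a domain.

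RBCS1A encodes the small subunit isoform outside the chromosome 5 cluster (chr1:25048158-25049667, minus strand). Its log2 enrichment was 3.34 and 3.76 in the 2 libraries of 0.5M, 3.52 and 2.64 in 1M, 3.20 and 2.19 in 2M, 2.28 and 2.47 in 5M, and 2.26 and 2.07 in 10M. The values were highest in the shallow libraries, where the domain was also narrow: 1200 bp in both 0.5M libraries, 1600 bp in replicate 1 of 1M and of 2M, and 3400 to 4000 bp in the remaining libraries of the depth series. The wider domains ran past the 3′ end of the gene into ABA4 (AT1G67080), which encodes a protein of neoxanthin synthesis, and did so in 15 of the 28 libraries. The trend over depth was −0.23 ± 0.07 (SE) per doubling of the labelled depth, relative to the median gene, and did not pass the test (edgeR quasi-likelihood, adjusted p = 0.224, 10 libraries). Scaled by library size the trend was −0.31 ± 0.07 and passed (edgeR quasi-likelihood, adjusted p = 0.041), as did 1.62% of 7580 genes.

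The narrow and the wide state of RBCS1A occurred within replicate pairs. Replicate 1 of 10 cycles had 3.10 over 1800 bp and replicate 2 had 2.24 over 4600 bp, and the 12 cycles libraries had 2.15 over 4200 bp and 2.83 over 2000 bp. Both 14 cycles libraries were wide, at 2.03 and 1.91 over 4200 bp. Among the 500K nuclei libraries, replicate 1 had 1.61 over 4000 bp and replicate 2 had 2.56 over 1600 bp. The enrichment of RBCS1A therefore went with the called width in these libraries, and libraries can be compared at the same borders only in subsets. With the same 1600 bp domain and the same 94 IgG reads, the value was 3.52 in 1M replicate 1, 3.20 in 2M replicate 1, 2.56 in 500K nuclei replicate 2, 2.56 in 100K nuclei replicate 1, 1.72 in eChIP replicate 2 and 1.62 in 20K nuclei replicate 1. With the same 3600 bp domain, the value was 2.64 in 1M replicate 2, 2.28 in 5M replicate 1, and 1.45 and 1.64 in the 1 mg libraries. The median over all genes also differed between these libraries, from 2.495 in 1M replicate 2 to 1.249 in 20K nuclei replicate 1. Relative to that median, with each library's own borders, the group mean of RBCS1A was 0.682 in 1M and 0.557 in 2M. It was 0.416 in 100K nuclei, 0.355 in 20K nuclei, 0.181 in eChIP, 0.158 in 5M, −0.021 in 500K nuclei and −0.398 in 1 mg.

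RBCS1B, RBCS2B and RBCS3B encode the other small subunits and lie in tandem (chr5:15383167-15385320, chr5:15380907-15382071 and chr5:15376988-15378642, all minus strand). RBCS1B and RBCS2B lay under 1 shared domain of 4400 to 6200 bp in 8 libraries, all of them from the depth and cycle series, and in these they have the same value. In CUT&Tag replicate 2 the domain of RBCS2B also reached into RBCS1B, which had a further domain of its own. RBCS2B had the fewest IgG reads, 39 behind a domain of 800 bp in 5 of the 6 libraries of 1 mg, 500K nuclei and 100K nuclei. Its log2 enrichment was 1.63 and 1.77 in the 1 mg libraries, 1.85 and 2.13 in 500K nuclei, and 1.89 and 1.95 in 100K nuclei.

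RBCS3B could be compared at fixed borders in the most libraries, because 13 of them called the identical 1800 bp domain (chr5:15376601-15378400, 141 IgG reads). In this domain the log2 enrichment was 2.02 and 1.95 in the 10M libraries, 1.95 and 1.94 in 10 cycles, 1.74 in 12 cycles replicate 2, 1.96 in 1M replicate 1 and 2.00 in 5M replicate 2. It was 1.23 and 1.204 in 500K nuclei, 0.92 in 100K nuclei replicate 2, 0.89 in 1 mg replicate 1, 0.84 in eChIP replicate 1 and 0.70 in 20K nuclei replicate 2. The 7 depth and cycle libraries all lay above the 6 others. RBCS1B showed the same order over an identical 1800 bp domain (135 IgG reads) in 9 libraries, with 2.23 in 10 cycles replicate 2, 1.97 in 2M replicate 1 and 1.51 in 0.5M replicate 1, against 1.48 in 500K nuclei replicate 1, 1.28 in 1 mg replicate 2, 1.17 and 1.28 in 100K nuclei, and 1.03 and 0.89 in eChIP. The 0.5M value rests on 18 ChIP reads. The median over all genes also differed between these libraries, from 2.00 to 2.88 in the depth and cycle series and from 1.25 to 2.17 in the 1 mg, nuclei and eChIP libraries. Relative to that median, with each library's own borders, the group mean of RBCS1B was −0.944 in 0.5M. That lay below 1 mg (−0.794), 100K nuclei (−0.775), 500K nuclei (−0.689) and eChIP (−0.648), while 2M (−0.365) and 10 cycles (−0.197) lay above them. The order of RBCS1B therefore did not hold for 0.5M on this scale.

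RCA encodes the chaperone that removes inhibitory sugar phosphates from Rubisco (chr2:16570746-16573692, minus strand). Its log2 enrichment ranged from 1.50 to 2.69 in the 16 libraries of the depth and cycle series. It was 1.12 and 1.34 in 1 mg, 1.27 and 1.27 in 500K nuclei, 1.45 and 1.44 in 100K nuclei, 0.67 and 0.97 in 20K nuclei, and 0.94 and 0.99 in eChIP. All of these lay below the depth and cycle series, whereas the CUT&Tag libraries, at 1.88 and 1.74, lay within it. The median over all genes also differed between these libraries. Relative to that median, the group means of RCA ran from −0.559 (1M) to −0.233 (0.5M) in the depth and cycle series. On this scale 100K nuclei (−0.555) and 20K nuclei (−0.449) lay within the series. Below it lay eChIP (−0.647), 1 mg (−0.712) and 500K nuclei (−0.838), and CUT&Tag (0.447) lay above it. The RCA domain was 12600 and 13200 bp wide in CUT&Tag, against 800 to 3400 bp in all ChIP libraries but 20K nuclei replicate 2, where 2 domains summed to 4800 bp, and 10M replicate 2 (7200 bp). In these libraries and in CUT&Tag the called domains extended downstream over RHC2A (AT2G39720), a RING finger gene, and AT2G39725, and in CUT&Tag also over AT2G39710.

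PRK encodes phosphoribulokinase, which regenerates the acceptor of carbon dioxide, and GAPA1 and GAPB encode the subunits of the chloroplast glyceraldehyde-3-phosphate dehydrogenase (chr1:11532199-11534639, chr3:9794862-9797045 and chr1:16127353-16129895, all plus strand). GAPA1 and GAPB lay under domains that covered an upstream neighbour as well. The GAPA1 domain took in LWD2 and AT3G26630 in 26 of its 27 libraries and most often began 3025 bp before the coding start, and the GAPB domain took in AT1G42960 in all 27 of its libraries and began 1751 bp before the coding start in 23 of 25 ChIP libraries. Values of GAPA1 and GAPB are therefore those of a gene and its neighbour together. GAPB varied least of these 10 genes over the 16 libraries of the depth and cycle series, from 1.78 to 2.33, and had 1.73 and 1.57 in CUT&Tag and 1.46 and 1.39 in eChIP. PRK varied with its width, from 1.57 over 3800 bp to 3.33 over 1200 bp between the 0.5M replicates, and its domain reached the downstream gene NSI in 9 libraries.

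SBPASE and CFBP1 encode sedoheptulose bisphosphatase and the plastid fructose bisphosphatase, phosphatases of the regeneration phase (chr3:20709294-20711640 and chr3:20016837-20018822, both plus strand). Their domains were the narrowest, with medians of 1200 and 1000 bp. The log2 enrichment of SBPASE was 2.39 and 2.54 in 10M, 2.87 and 2.78 in 10 cycles, 2.39 and 2.52 in 12 cycles, and 2.13 and 2.24 in 14 cycles. The 10 cycles libraries lay above and the 14 cycles libraries below all 4 others. SBPASE had 1.70 and 1.55 in 1 mg, 2.15 and 2.14 in 500K nuclei, 1.64 and 2.12 in 100K nuclei, 1.48 and 1.54 in 20K nuclei, 1.54 and 1.44 in eChIP, and 2.35 and 1.93 in CUT&Tag. The median over all genes also differed between these libraries. Relative to that median, the group mean of SBPASE was 0.36 in 10M, 0.246 in 20K nuclei and 0.04 in 500K nuclei. It was −0.12 in 100K nuclei and in eChIP, −0.316 in 1 mg and 0.78 in CUT&Tag. In CUT&Tag SBPASE stood at the 98.9th and 97.2nd percentile of all genes with a domain. CFBP1 had 2.51 and 2.49 in 10M, 1.60 and 1.85 in 1 mg, 1.07 and 1.49 in eChIP and 1.04 and 1.06 in CUT&Tag, so the 10M libraries lay above each of these groups. In CUT&Tag CFBP1 stood at the 14.9th and 26.8th percentile, against the 77.6th and 79.6th in 10M.

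**Figure D2:**
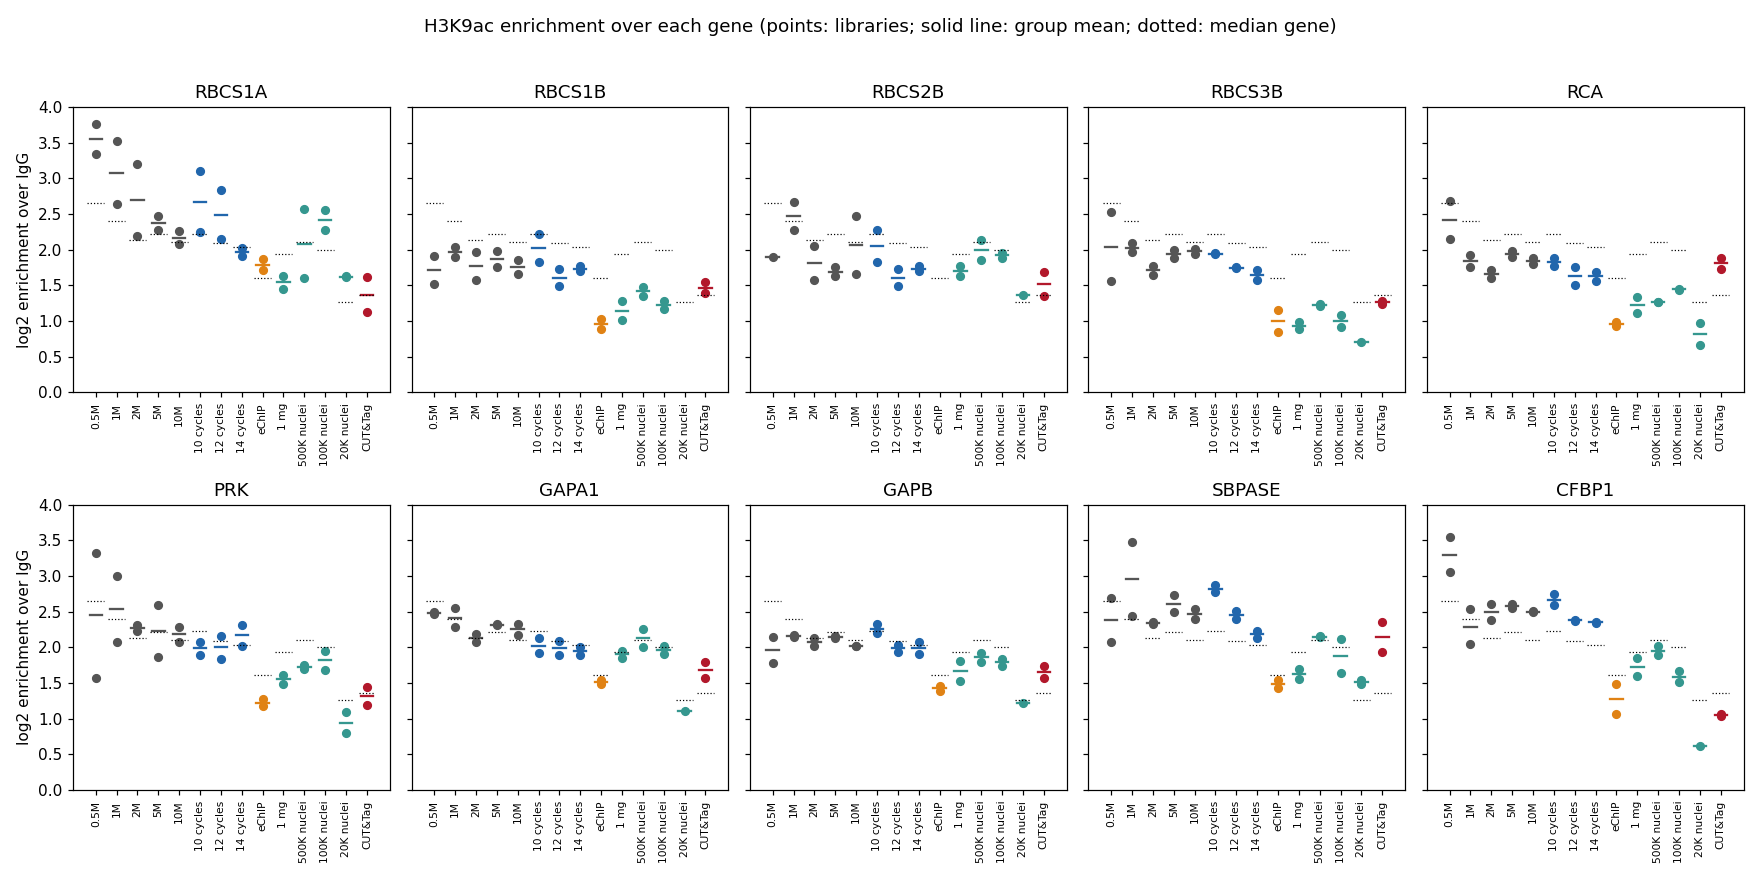
Log2 enrichment of ChIP over IgG reads at each of the 10 genes by group (points: libraries; solid line: mean of the group; dotted line: median of all genes with a domain). RBCS3B lay between 1.95 and 2.02 in the 10M libraries and between 0.89 and 0.98 in the 1 mg libraries.

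The low-input libraries were compared with 10M to ask whether 1 mg of tissue gives the same picture of these genes. All 10 genes had a lower fitted enrichment in 1 mg than in 10M relative to the median gene, with a median log2 fold change of −0.43, while 46.3% of all genes tested were below 0. RBCS2B alone turned above 0 when a single library was left out, at 0.255 without 10M replicate 2. The largest differences were at RBCS3B (−0.86 ± 0.09 SE, edgeR quasi-likelihood, adjusted p = 0.0682), SBPASE (−0.65 ± 0.14, adjusted p = 0.129) and CFBP1 (−0.59 ± 0.10, adjusted p = 0.0963). RBCS1A, RBCS1B, RCA and PRK lay between −0.42 and −0.45, RBCS2B was at −0.21 and GAPA1 and GAPB were both at −0.16. None of the 10 passed the test, and 0 of all 14120 genes did (0.0%), with 2817 at an unadjusted p under 0.05. DESeq2 called 253 genes (1.79%), RBCS3B (−0.86 ± 0.23, DESeq2 adjusted p = 0.0133) as the only one of the 10. RBCS3B was also the only one called under scaling by library size (−1.05 ± 0.12, edgeR quasi-likelihood, adjusted p = 0.044), where 0.928% of genes were called.

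Because an enrichment over a called domain depends on its width, the same test was also run on genes whose domain widths in the 4 libraries were within 1.25 times of each other, an alternative added after the data were seen. There 865 of 5845 genes were called (14.8%; 10.2% lower). The 4 of the 10 genes that could enter were all called lower in 1 mg: RBCS3B by −0.90 ± 0.08 (edgeR quasi-likelihood, adjusted p = 0.0012), CFBP1 by −0.62 ± 0.09 (adjusted p = 0.00487), RBCS1A by −0.47 ± 0.06 (adjusted p = 0.00343) and GAPA1 by −0.20 ± 0.05 (adjusted p = 0.0436). The other 6 had widths that differed more. Widths themselves were smaller in both 1 mg libraries than in both 10M libraries at RBCS1A, RBCS1B, RBCS2B, RCA, PRK, GAPA1 and GAPB, which is 7 of 10 genes against 8.55% of genes with a domain in all 4 libraries, and larger at none, against 16.3%. Depth was unequal: relative to 10M it was 72.2% and 63.4% in 1 mg, 80.7% and 91.7% in eChIP, and 33.9% and 74.2% in CUT&Tag. In 5M (45.8% and 53.9%) the mean width was also below that in 10M at each of the 7 but PRK. Whether depth has a part in the width differences was not tested.

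eChIP was compared with the same 10M libraries, so its values are not independent of those for 1 mg. Of the 9 genes with a domain in all 4 libraries, 8 had a lower fitted enrichment in eChIP relative to the median gene, with a median log2 fold change of −0.35 over the 9, while 46.1% of all genes tested were below 0. The values were −0.68 ± 0.16 (SE) at CFBP1, −0.46 ± 0.13 at SBPASE, −0.45 ± 0.13 at RBCS3B, −0.44 ± 0.12 at PRK and −0.35 ± 0.09 at RCA, and RBCS1A alone was above 0, at 0.15 ± 0.11, with a domain of 1400 and 1600 bp in eChIP against 4000 bp in both 10M libraries. None passed the test (edgeR quasi-likelihood, adjusted p from 0.126 at CFBP1 to 0.702 at GAPB), nor did any of 13961 genes (0.0%), with 3073 at an unadjusted p under 0.05 and 259 called by DESeq2. Scaled by library size in place of the median gene, the median over all genes moved by −0.50 and all 9 were lower, RBCS1A included, as were 95.8% of all genes. Among genes of similar width, GAPA1 (−0.27 ± 0.06, edgeR quasi-likelihood, adjusted p = 0.00886) and CFBP1 (−0.74 ± 0.12, adjusted p = 0.00304) could enter and both were called lower, while 24.6% of the 3806 genes were called and 14.7% were called lower. In width, PRK, GAPA1 and CFBP1 were wider in both eChIP libraries than in both 10M libraries (35.0% of genes with a domain in all 4 libraries) and RBCS1A, RBCS1B, RCA and GAPB were narrower (6.07%). In the part of the gene covered, PRK was lower in eChIP, not higher.

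CUT&Tag differed from 10M in both directions. It was scored over the same IgG reads as the ChIP libraries, and whether this shared control has a part in the differences was not tested. RCA was higher in CUT&Tag by 0.75 ± 0.08 (SE) on the log2 scale relative to the median gene (edgeR quasi-likelihood, adjusted p = 0.00543), RBCS1B by 0.49 ± 0.13 (adjusted p = 0.0371) and GAPB by 0.41 ± 0.10 (adjusted p = 0.0273), and CFBP1 was lower, at −0.65 ± 0.13 (adjusted p = 0.0164). These 4 of 10 genes compare with 36.9% of 12635 genes called, 18.7% higher and 18.2% lower. SBPASE had 0.43 ± 0.16 and did not pass (adjusted p = 0.0812), and the remaining 5 genes lay between −0.09 and 0.22. RCA remained called without any single library. RBCS1B lost its call without 10M replicate 1 (adjusted p = 0.204) or without either CUT&Tag library (0.0988 and 0.142), GAPB lost it without any 1 of the 4 libraries (0.0604 to 0.131), and CFBP1 lost it without either 10M library (0.0569 and 0.0653), while RBCS2B gained one without 10M replicate 2 (0.0289). The RCA value in CUT&Tag belongs to a domain of over 12 kb that holds 3 further genes.

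These directions are relative to the median gene. When the libraries were scaled by size alone, the median over all genes moved by −0.79 in CUT&Tag and all 10 genes were below 0, from −0.033 ± 0.11 at RCA to −1.45 ± 0.13 at CFBP1, as were 93.9% of all genes. Only the direction of CFBP1 among the 4 called genes was the same under both scalings.

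**Figure D3:**
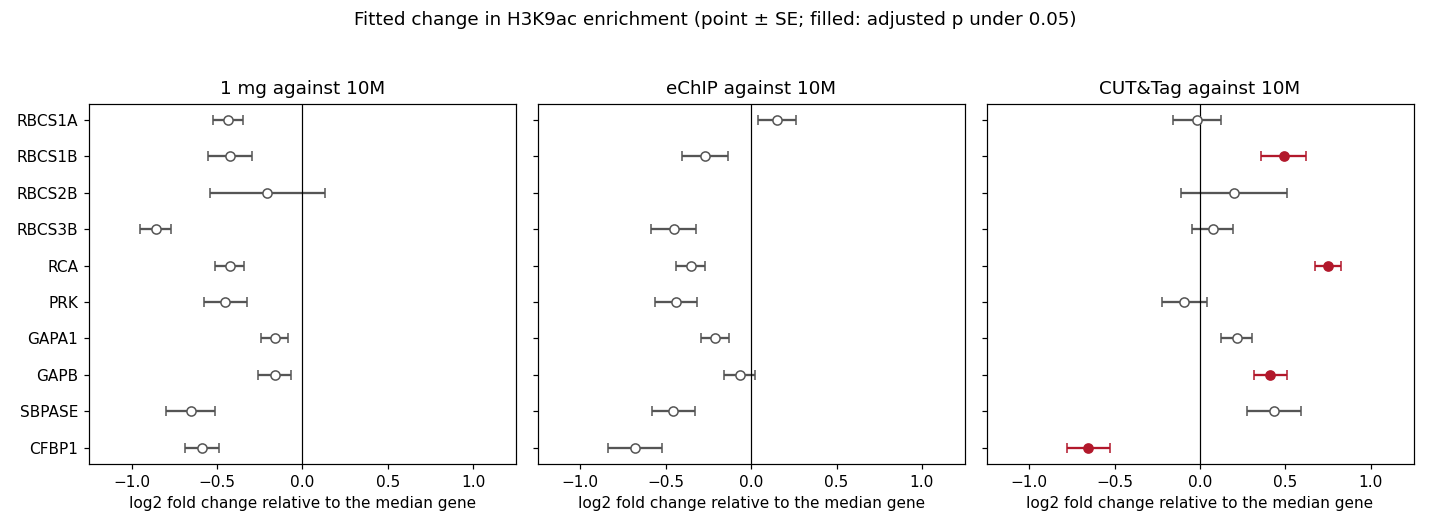
Fitted log2 fold change of H3K9ac enrichment against the PHILO 10M libraries, relative to the median gene, for 1 mg, eChIP and CUT&Tag (2 libraries against 2 in each; bars: standard error; filled: adjusted p under 0.05). All 10 genes were below 0 in 1 mg, 8 of 9 in eChIP, and RCA, RBCS1B and GAPB were called higher and CFBP1 lower in CUT&Tag.

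The 5′ border of the domains differed in CUT&Tag at some of the genes. In the ChIP libraries it often lay at the same place from library to library: 151 bp before the coding start of RBCS1A in 17 of 26 libraries, 45 bp at RBCS1B in 22 of 24, 94 bp at RBCS3B in 24 of 25, 255 bp at RCA in 18 of 26, and 239 bp at SBPASE in 22 of 26. In the 2 CUT&Tag libraries the border lay farther upstream at several of the genes, at 751 and 951 bp in RBCS1A, 494 bp in both at RBCS3B, 655 and 855 bp in RCA, 1467 and 2067 bp in PRK and 439 bp in both at SBPASE. No ChIP domain reached as far as the shorter CUT&Tag domain at RBCS1A, RBCS3B, PRK or SBPASE, while 1 did at RBCS1B and at CFBP1, 5 at RCA, and 8 of 22 at RBCS2B. The 8 at RBCS2B were the libraries where 1 shared domain covered RBCS1B as well. How many of all genes had a border farther upstream in CUT&Tag was not counted. Domains were wider in both CUT&Tag than in both 10M libraries at 70.0% of genes with a domain in all 4. At GAPA1 and GAPB, whose ChIP domains usually took in an upstream neighbour, 22 and 24 of 25 ChIP domains reached as far as the shorter CUT&Tag domain, and the annotated start lay inside the ChIP domain in 24 and 25 libraries. The outermost annotated start lay inside both CUT&Tag domains at all 10 genes, as it did at 88.2% of genes with a domain in all 4 libraries, and inside both 10M domains at 5 genes, against 46.2%. RBCS3B and SBPASE had their start in both CUT&Tag domains and in neither 10M domain, which held for 36.8% of genes. No label gives a batch, so in the comparisons of 1 mg, eChIP and CUT&Tag with 10M the group and any batch cannot be told apart.

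The G-boxes shown above lay inside both CUT&Tag domains at all 6 genes. Among ChIP libraries, the G-box of RCA lay inside the domain in 24, that of SBPASE in 22 and that of CFBP1 in 16. The G-box of RBCS2B was inside in 9, that of RBCS1A in 8 and that of RBCS3B in 1. The 9 at RBCS2B include the 8 libraries where 1 shared domain covered RBCS1B as well. The ChIP border thus usually left out the G-box of RBCS3B and RBCS1A and took in that of RCA and SBPASE. A border falls on a 200 bp grid, so a distance under that width is not resolved.

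RBCS1A, RBCS3B, RCA and CFBP1 were wider in both CUT&Tag libraries than in both 10M libraries, as were 70.0% of genes with a domain in all 4 libraries, and GAPB and SBPASE were narrower, as were 4.48%. In the part of the gene itself that was covered, RBCS3B alone was higher in CUT&Tag (44.8% of these genes), and RBCS1B, RBCS2B, GAPB and SBPASE were lower (12.3%). SBPASE was 600 and 1000 bp wide in CUT&Tag against 1400 and 1200 bp in 10M, with its 5′ border 200 bp farther upstream. Its 3′ border lay earlier in the gene.

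**Figure D4:**
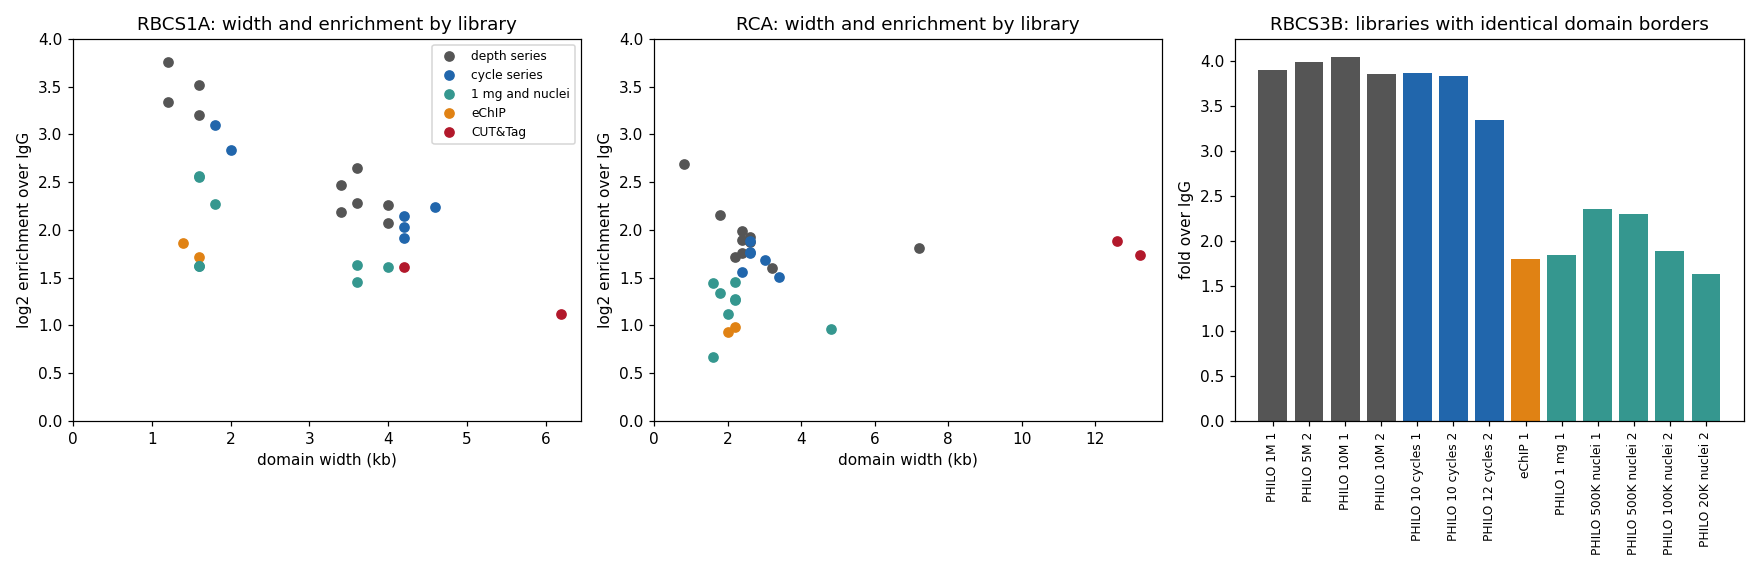
Left and middle, log2 enrichment against domain width in kb at RBCS1A and RCA (points: 28 libraries, coloured by series). Right, fold enrichment over IgG of RBCS3B in the 13 libraries that called the identical 1800 bp domain; the 7 depth and cycle libraries lay between 3.34 and 4.04 and the 6 others between 1.63 and 2.35.

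Depth, PCR cycles and nuclei number were tested within their own series. Over depth, 9 genes could be tested and none was called, while 0.0132% of 7580 genes were. Apart from RBCS1A, their trends lay between 0.00 and 0.08 per doubling of depth, but scaled by library size 7 of the 9 were below 0, as were 83.7% of all genes. Between 14 and 10 cycles, 0 of 13267 genes were called (0.0%), with 613 at an unadjusted p under 0.05 and 7 called by DESeq2. SBPASE had −0.46 ± 0.17 and PRK 0.37 ± 0.15 in this comparison (edgeR quasi-likelihood, adjusted p = 0.971 for both). Between 100K and 500K nuclei, 0 of 13842 genes were called (0.0%), with 747 at an unadjusted p under 0.05 and 38 called by DESeq2, and the 10 genes lay between −0.26 ± 0.14 at CFBP1 and 0.40 ± 0.29 at RBCS1A. Between 20K and 500K nuclei, only RBCS1A, RCA, PRK and SBPASE had a domain in all 4 libraries and lay between 0.16 and 0.51, though all 4 were below 0 when scaled by library size, as were 99.5% of all genes. By the main scaling, 0 of 10500 genes were called (0.0%), with 1137 at an unadjusted p under 0.05 and 37 called by DESeq2.

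Few of the genes stood apart in width within these series. SBPASE was wider and PRK narrower in both 14 cycles than in both 10 cycles libraries (8.54% and 7.41% of genes with a domain in all 4 libraries). GAPA1 and CFBP1 were wider in 100K than in 500K nuclei (15.8%), and none was narrower (2.39%). None of the 4 genes with a domain in the 20K and 500K nuclei libraries stood apart in width (11.2% of genes wider, 16.2% narrower).

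Across all 14 groups, the 4 genes with a domain in every library could be tested for any difference. RCA (edgeR quasi-likelihood, adjusted p = 2.08e-05) and SBPASE (adjusted p = 0.00932) differed among the groups, while RBCS1A (adjusted p = 0.222) and PRK (adjusted p = 0.505) did not pass, and 29.8% of 6889 genes were called. Without the 20K nuclei libraries, which lacked domains at 6 of the 10 genes, 9 genes could be tested and 7 were called (RBCS1B, RBCS3B, RCA, GAPA1, GAPB, SBPASE and CFBP1), against 30.6% of 7329 genes. This alternative was added after the data were seen.

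Other genes of carbon fixation were also marked. Of 15 further Calvin cycle genes, 9 had a domain in all 28 libraries. The one least often marked was TKL2, a second transketolase gene, with a domain in 11. Of 6 genes for Rubisco assembly factors and chaperonins, 2 had a domain in all 28. The same held for 2 of 7 photorespiration genes and for 3 of 9 genes for cytosolic or other isoforms of the same enzymes. Among all genes, 26.9% had a domain in all 28 libraries. The shares of the assembly, photorespiration and isoform genes were little above this. The highest median enrichment among these lists was at RPI1, a ribose-5-phosphate isomerase gene (log2 3.47, 99.5th percentile), and the lowest at GAPCP2, a plastid glycolytic dehydrogenase gene (1.11).

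In 1 mg against 10M, the median log2 fold change was −0.15 over 14 other Calvin cycle genes, −0.29 over 7 photorespiration genes, −0.22 over 6 assembly genes and −0.06 over 9 cytosolic or other isoform genes, beside 0.02 over all genes. The corresponding eChIP medians were −0.05, −0.03, 0.02 and 0.03. The isoform genes spread widely around their median in 1 mg, and 7 of the 9 were below 0. RPI1 had −1.60, GAPC1 −0.74 and GAPC2 −0.45, while GAPCP1 had 1.28, so lower values in 1 mg were not particular to the 10 genes. Over the 3 green tissue markers that could be tested the median was −0.26 in 1 mg and −0.15 in eChIP, all 3 below 0 in each. Of 6 root markers only SCR, the one with a domain in all 28 libraries, could be tested, at 0.025 and 0.088. SCR alone cannot stand for root tissue. Whether the tissue mix has a part in the values of the 10 genes was not tested. No gene of these lists was called in the comparisons of 1 mg or eChIP with 10M. In CUT&Tag against 10M, 4 of 15 other Calvin cycle genes were called higher and 1 lower (edgeR quasi-likelihood). These were FBA3, a plastid aldolase gene (1.16 ± 0.10, adjusted p = 0.00523), GAPA2 (0.52 ± 0.09, adjusted p = 0.014), TKL1 (0.46 ± 0.08, adjusted p = 0.0138) and CP12-2, a regulator of phosphoribulokinase and the dehydrogenase (0.39 ± 0.09, adjusted p = 0.0272), with PDTPI, the plastid triose phosphate isomerase gene, lower (−0.50 ± 0.08, adjusted p = 0.0106).

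The chaperonin genes CPN60A1 (1.08) and CPN60B1 (1.44), whose products fold the large subunit of Rubisco, were called higher in CUT&Tag among the 6 assembly genes, and the photorespiration genes GOX1 (0.37) and GLYK (0.70) among 7. Of 8 cytosolic or other isoform genes tested, GAPCP1 (0.79), GAPCP2 (1.07) and CTIMP (0.41) were called higher and GAPC1 (−0.42) and RPI1 (−1.44) lower. The called shares of these lists stand beside 36.9% of all genes.

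The genes whose enrichment over the 14 group means, relative to the median gene, was most like that of RBCS1A were AT1G75960 (Pearson r = 0.85), PSB27 (0.79), AT2G42030 (0.78), AT5G41680 (0.78) and AT3G21690 (0.78), out of 7390 genes with a domain in all 28 libraries. The group means share libraries of the same depth and one IgG control, so r is a description. Over the same 14 means, r with RBCS1A was 0.06 for RCA, 0.22 for PRK and 0.09 for SBPASE.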

How the data were processed

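Per the labels and the study's methods, the authors aligned reads to TAIR10 with Bowtie2, called domains in each library with epic2 0.0.52 against IgG (listed as SICER 0.0.52), and deposited for each domain a count of ChIP reads, a count of IgG reads, a log2 fold change, a p-value, an FDR and a score. Window size, gap, FDR limit and duplicate handling were not given in the sources used here. The deposited score was not used. All lists share 1 IgG control. Without molecular identifiers, reads are not independent molecules, so the true error can exceed the counting error.

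Counts of the domains overlapping a gene were summed and tested in R 4.3.3 with edgeR 4.0.16 (quasi-likelihood, offset of log IgG count plus the library's median ratio, Benjamini-Hochberg, threshold 0.05, 2-sided). Genes needed a domain in every library compared. DESeq2 1.42.0, other scalings, overlaps, domain filters, a replicate block and left-out libraries were alternatives. In counts simulated for 1 mg and for CUT&Tag against 10M, with 200 genes changed, the test recovered known changes. Borders and IgG counts were held fixed there, and the spread between libraries was a set value not estimated from these data. The simulation therefore does not measure the power of the test in the data, where borders also differ. Replicates with identical borders differed by about counting error or less in the depth, cycle, 1 mg and 100K nuclei groups. Chi-square over degrees of freedom was 0.757 to 0.934 there, with 0.773 in 10M. It was above counting error in eChIP (1.12), 20K nuclei (1.24), 500K nuclei (1.55) and CUT&Tag (1.56). The lists of replicates differed, so both were kept. Domains whose borders differed between replicates did not enter, so the full spread was not measured. Genes and lists were chosen with earlier results of these data known. All 10 genes are named; other genes by call, extreme value or similarity to RBCS1A. Annotation and sequences came from RefSeq TAIR10.1.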

Additional observations from a re-analysis of the deposited data

Results flagged for a closer look

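The large subunit of Rubisco is encoded by the plastid gene rbcL, outside the nuclear genes described above, and plastids carry no histones. The whole plastid genome (chromosome Pt, 1 to 154600) was nevertheless called as 1 domain in 7 of the 28 libraries, over 388332 IgG reads. The fold over IgG was 1.88 in replicate 1 of 0.5M, 1.26 in replicate 2 of 2M, 1.18 in replicate 2 of 12 cycles, 1.13 in replicate 2 of 14 cycles, 1.47 and 1.36 in the 20K nuclei libraries and 1.46 in replicate 1 of CUT&Tag. In 5 of the 6 groups concerned the other replicate had no such call. What these values share with the nuclear genes was not tested.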

How the results depend on the processing

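Counts of called genes depended on the scaling and the tool, and the cause was not tested. Scaled by library size, the calls were 123 for the depth trend, 9224 for 20K nuclei, 131 for 1 mg, 8266 for eChIP, 9682 for CUT&Tag and 6673 across the groups. Without the IgG offset, by TMM and by DESeq2 size factors, they were 9 and 9 for the depth trend, 1565 and 1564 for 1 mg, 1592 and 1588 for eChIP, and 4183 and 4198 across the groups. DESeq2 called 135 for the depth trend, 7 for cycles, 38 for 100K nuclei, 37 for 20K nuclei, 253 for 1 mg, 259 for eChIP and 3507 across the groups. With all 28 libraries in 1 fit, the calls were 6 for cycles, 4 for 100K nuclei, 85 for 20K nuclei, 79 for 1 mg, 62 for eChIP and 1970 for CUT&Tag. Among genes of similar width, which are fewer, they were 15, 1, 47, 865, 935 and 264 for the depth trend, cycles, 20K nuclei, 1 mg, eChIP and CUT&Tag, and this fit was not run across the groups, where under 50 genes were left. Stricter domains gave 1261 calls across the groups at a log2 fold change of at least 1 and 958 at an FDR of at most 1e-10, and 2 and 1 of the 10 genes present in all 28 libraries. Without the 0.5M libraries the depth trend had 4 calls.

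With 1 library left out, the depth trend had 0 to 3 calls (0 without 0.5M replicate 2 or either 10M library, 3 without 1M replicate 2), CUT&Tag 2455 to 3380 (2941 without its replicate 1, 2455 without its replicate 2), the test across the groups 1174 to 2511 (1174 and 1251 without CUT&Tag replicate 1 and 2), and the genes present everywhere 4 to 7 (7 without 20K nuclei replicate 1). Of the values of the 10 genes in these fits, 264 kept direction and side of the threshold, 9 fell below it, 1 passed it and 28 changed sign, called in neither fit. The genes with such a change ranged from −0.063 to 0.046 (PRK) and −0.035 to 0.043 (CFBP1) in the depth trend, −0.26 to 0.023 (RBCS1B), −0.31 to 0.023 (RBCS2B) and −0.14 to 0.093 (RCA) in cycles, −0.21 to 0.055 (RBCS1B), −0.027 to 0.11 (RBCS2B), −0.11 to 0.004 (GAPA1), −0.015 to 0.096 (GAPB) and −0.40 to 0.093 (SBPASE) in 100K nuclei, −0.013 to 0.33 (PRK) in 20K nuclei, −0.61 to 0.255 (RBCS2B) in 1 mg, and −0.18 to 0.16 (RBCS1A), −0.21 to 0.65 (RBCS2B), −0.024 to 0.17 (RBCS3B) and −0.22 to 0.043 (PRK) in CUT&Tag.

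Of their values under the other alternatives, 482 kept direction and side of the threshold, 33 passed it, 6 fell below it and 70 changed sign, 50 of these called in neither fit. Scaled by library size, the changed values were RBCS1B (−0.013), RCA (−0.042), PRK (−0.063), GAPA1 (−0.042), SBPASE (−0.034) and CFBP1 (−0.072) in the depth trend, GAPA1 (−0.077) in cycles, RBCS2B (−0.079) and GAPB (−0.070) in 100K nuclei, RBCS1A (−0.525), RCA (−0.43), PRK (−0.79) and SBPASE (−0.63) in 20K nuclei, RBCS1A (−0.38) in eChIP, and RBCS1B (−0.31), RBCS2B (−0.59), RBCS3B (−0.72), RCA (−0.033), GAPA1 (−0.57), GAPB (−0.38) and SBPASE (−0.36) in CUT&Tag. Without the IgG offset, where a value follows the called width, they were, by TMM and by DESeq2 size factors, RBCS1A (0.12, 0.12) and CFBP1 (−0.115, −0.11) in the depth trend, RBCS1A (0.17, 0.17), RBCS1B (0.38, 0.38), RBCS2B (0.565, 0.57), PRK (−0.56, −0.56) and GAPA1 (−0.042, −0.041) in cycles, RBCS1A (−0.55, −0.55), RCA (−0.065, −0.067), PRK (−0.027, −0.029), GAPB (−0.11, −0.11) and CFBP1 (0.26, 0.26) in 100K nuclei, RBCS1A (−0.54, −0.52) and SBPASE (−0.12, −0.11) in 20K nuclei, RBCS1A (−2.00, −1.99) in eChIP, and RBCS1B (−1.72, −1.78), RBCS2B (−1.66, −1.71), RBCS3B (−0.76, −0.79), GAPA1 (−0.86, −0.90), GAPB (−1.29, −1.32) and SBPASE (−1.19, −1.23) in CUT&Tag. Among genes of similar width they were RBCS2B (−0.032) and GAPB (−0.021) in 100K nuclei and RBCS3B (−0.039) in CUT&Tag, with all 28 libraries in 1 fit RBCS1A (0.095) and PRK (0.018) in CUT&Tag, and without the 0.5M libraries PRK (−0.038) and SBPASE (−0.037) in the depth trend.

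Same-numbered libraries correlated between −0.06 and 0.08 in their deviations from the group means, which gave no sign of pairing. Where deviations are about the counting error, they would correlate little in paired libraries too, so this check cannot show whether the libraries were paired. With the replicate number as a block, CUT&Tag had 4214 calls, without RBCS1B (edgeR quasi-likelihood, adjusted p = 0.0512) and GAPB (0.0527), and the block changed no other call among the 10 genes. RBCS1B and GAPB also lost their calls in DESeq2 (adjusted p = 0.0775 and 0.0943). IgG reads under the domains, 39 at the fewest, limit the narrow genes.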
